A study of Mus musculus with 15 samples.

Results

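The Kruppel-like transcription factors measured here were Klf2, Klf3, Klf4, Klf5, Klf6, Klf9 and Klf10. Every probe set that the platform annotation assigns to 1 of these 7 symbols alone was taken, which gave 11 of the 12422 non-control probe sets. The annotation gives 8572 distinct gene entries on this array, joined names of several genes included, and the members are 7 of these. RNA came from mouse NIH 3T3 cells, an immortal embryonic fibroblast line, and was hybridised to Affymetrix MG_74Av2 arrays. Each C/EBP culture held a plasmid in which a zinc-inducible metallothionein promoter drives a human C/EBP cDNA, that of the α, β, δ or ε form. C/EBPs are bZIP transcription factors known from fat, liver and myeloid differentiation. Control cells carried the same plasmid with no insert. Transfected cells had been selected with G418 and are described as polyclonal, and all 5 groups, vector included, had received zinc sulphate for 16 h. Each group holds 3 arrays, called vector, alpha, beta, delta and epsilon after the titles and numbered 1 to 3. The labels describe triplicate clones but do not say whether these were separate transfections, so p-values cover only the spread among these samples, which may be technical. Effects of the C/EBP and differences between transfected pools cannot be told apart.

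Kruppel-like factors are zinc-finger proteins that bind GC-rich and CACCC elements, where some recruit acetyltransferases and others recruit corepressors such as CtBP or Sin3. In fibroblasts Klf4, Klf6 and Klf10 are known as genes that respond within hours to serum, growth factors or stress, and Klf4 as a brake on the cell cycle. During fat-cell differentiation, in which the C/EBPs act, Klf4, Klf5, Klf6 and Klf9 have been described as promoting the programme, and Klf2 and Klf3 as opposing it.

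Deposited signals were scaled to a common array median and are given in units of signal. A probe set was tested where its signal exceeded 1092.06 units, the pooled median, on at least 3 of the 15 arrays. Of the 11 member probe sets, 9 for 6 genes passed and entered the limma fit with 6963 probe sets in all. Klf2 and a second Klf4 probe set did not pass. A difference is called where its limma p-value, adjusted over the 6963 probe sets, was under 0.05. Errors beside signals are SD over 3 arrays, and those beside log2 differences are the fit's standard errors. Fold changes are taken from the fitted log2 differences.

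Array medians before scaling ran from 992.25 to 1149.7 units. Arrays of the same group correlated at 0.932 to 0.952. For pairs of arrays taken from different groups, the lowest correlation was 0.918 and the highest 0.959. At least 1 such pair was therefore more alike than any pair of the same group. Of 10 fibroblast markers, 9 exceeded 1092.06 units on at least 3 arrays, and the exception was Vim, at 427 to 1184 units. The same mark was passed by 1 of 6 epithelial markers (Cdh1), 2 of 6 endothelial markers (Kdr and Cd34), 3 of 6 haematopoietic markers on the array (Cd79a, Lyz2 and Cd68), 0 of 4 hepatocyte markers and 2 of 5 smooth muscle markers (Acta2 and Tagln). In bulk RNA, fewer cells that express a gene and less of its RNA per cell cannot be told apart.

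Against vector, calls among the Kruppel-like factors were falls and none was a rise. Of the 9 tested probe sets, 2 fell in alpha, those of Klf4 and Klf6, beside 7.15% of all tested probe sets that fell and 7.17% that rose. In beta 3 fell, those of Klf4, Klf6 and 1 of Klf9, beside 4.18% of all that fell and 5.13% that rose. In epsilon 4 fell, those of Klf4, 1 of Klf3 and both of Klf10, beside 6.91% of all that fell and 9.38% that rose. In delta 0 of 9 were called by limma, 1 had an unadjusted p under 0.05, and 0% of all tested probe sets were called lower. In that comparison 0.359% of all probe sets were called in either direction, each of them higher. Of the 9 tested probe sets, 6 were called in at least 1 C/EBP group, beside 22.0% of all tested probe sets. They belong to 5 of the 6 tested genes, all but Klf5.

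The median log2 difference of the 9 probe sets was -0.53 in alpha, -0.42 in beta, -0.16 in delta and -0.57 in epsilon. Over all tested probe sets the medians were 0, 0.04, 0.01 and 0.08. The 4 comparisons share the vector arrays, and vector array 2 was the highest of the 3 vector arrays in 7 of the 9 probe sets. Without that array the member medians were -0.32 in alpha, -0.40 in beta, -0.13 in delta and -0.39 in epsilon, and the count of falls in beta was 1. Probe sets whose 3 arrays lay below all vector arrays numbered 5 in alpha, 3 in beta, 1 in delta and 5 in epsilon, beside 13.7%, 11.7%, 4.77% and 11.8% of all tested probe sets.

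**Figure D1:**
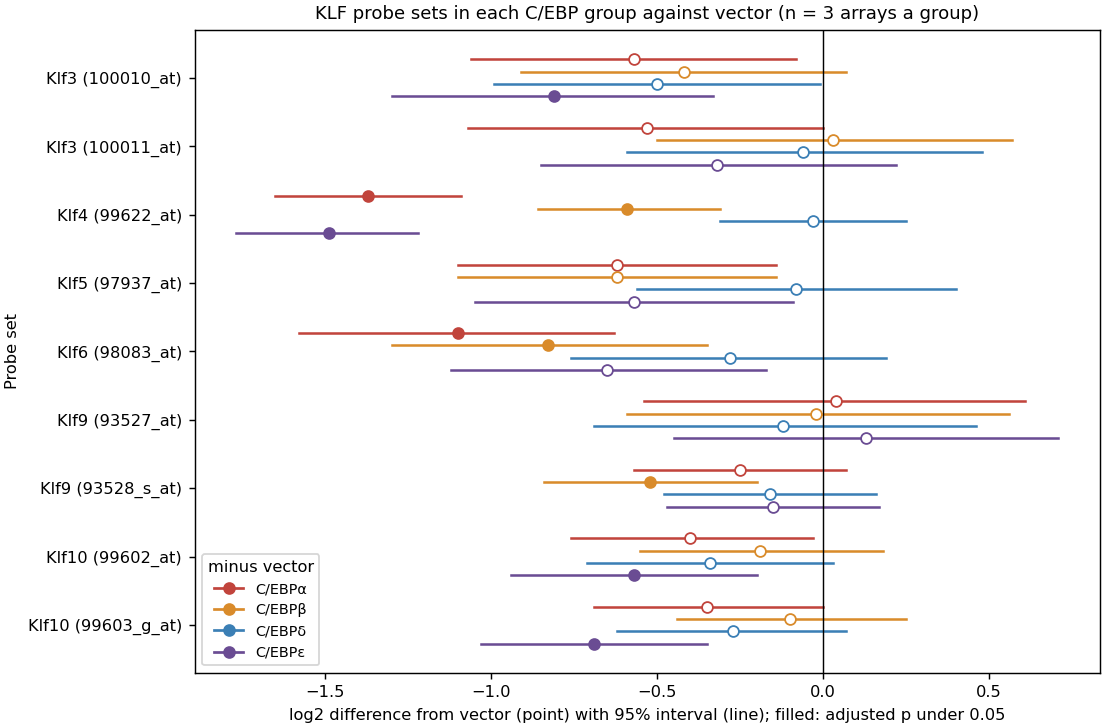
Log2 difference from vector (axis) for each of the 9 tested member probe sets in the 4 C/EBP groups, with 95% intervals of the fit and called differences filled. The Klf4 probe set lies at -1.37 in alpha, -0.59 in beta, -0.03 in delta and -1.49 in epsilon.

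RefSeq's promoter table for GRCm38.p6 holds 5 of the 7 members, all but Klf5 and Klf10. The 250 bases before the gene start are shown for the 4 of them that were called in at least 1 group, so that their sequences can be set beside their differing group patterns. They are read 5′ to 3′ on the strand of the gene. Capitals mark 4 motifs searched on both strands: the GC box GGGCGG, the CACCC box CCACCC, the CCAAT box and the C/EBP core TTNNGNAA. Overlapping matches run together.
Klf4, GRCm38.p6 chr4:55532476-55532725, minus strand: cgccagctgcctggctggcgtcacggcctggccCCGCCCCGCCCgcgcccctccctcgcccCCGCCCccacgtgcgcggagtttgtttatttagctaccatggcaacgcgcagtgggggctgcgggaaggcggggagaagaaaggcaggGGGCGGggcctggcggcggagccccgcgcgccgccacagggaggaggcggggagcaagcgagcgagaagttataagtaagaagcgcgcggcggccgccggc
Klf6, GRCm38.p6 chr13:5861239-5861488, plus strand: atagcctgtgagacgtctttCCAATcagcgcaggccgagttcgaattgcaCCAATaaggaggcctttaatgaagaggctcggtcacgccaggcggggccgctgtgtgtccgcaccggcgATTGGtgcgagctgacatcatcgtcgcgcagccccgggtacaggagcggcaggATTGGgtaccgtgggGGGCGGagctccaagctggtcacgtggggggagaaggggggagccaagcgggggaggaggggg
Klf3, GRCm38.p6 chr5:64803271-64803520, plus strand: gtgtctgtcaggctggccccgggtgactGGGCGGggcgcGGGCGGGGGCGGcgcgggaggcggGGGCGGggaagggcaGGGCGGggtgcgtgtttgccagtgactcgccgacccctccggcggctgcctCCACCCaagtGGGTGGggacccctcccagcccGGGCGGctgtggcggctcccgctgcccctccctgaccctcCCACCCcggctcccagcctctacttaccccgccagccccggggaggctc
Klf9, GRCm38.p6 chr19:23140976-23141225, plus strand: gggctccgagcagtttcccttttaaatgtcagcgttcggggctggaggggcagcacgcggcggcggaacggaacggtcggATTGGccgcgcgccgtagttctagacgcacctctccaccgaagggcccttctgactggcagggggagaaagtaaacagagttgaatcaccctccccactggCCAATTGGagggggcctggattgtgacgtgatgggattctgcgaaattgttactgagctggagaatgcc

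The windows differ in which of these letters they hold. Klf4 has 4 GC boxes and no CCAAT box, whereas Klf6 has 4 CCAAT boxes and 1 GC box, and Klf9 has 3 CCAAT boxes and no GC box. Klf3 has 6 GC boxes and 3 CACCC boxes. Klf2 has 2 GC boxes and 1 CACCC box. GC content was 74.0% for Klf4, 64.8% for Klf6, 78.4% for Klf3, 59.6% for Klf9 and 71.2% for Klf2, beside a median of 52.4% over all 32851 windows. Of those windows 32.7% hold a GC box, 28.1% a CACCC box and 33.8% a CCAAT box. The C/EBP core is in 0 of the 5 member windows and in 36.8% of all, and the heat shock element unit pair GAANNTTC in 0 of 5 and in 6.69% of all. These are letters in a window, not sites.

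Klf4, which represses growth-promoting genes and raises the cell cycle inhibitor Cdkn1a, had the smallest p of the members in the moderated F-test over the 5 groups (limma adjusted p = 2.59e-07). The signal of its probe set 99622_at was 7409, 9475 and 6730 units on the vector arrays, 3305, 2696 and 3083 in alpha, and 5403, 5094 and 5064 in beta. In delta it was 7570, 7646 and 7642 units, and in epsilon 2742, 2714 and 2840. All arrays of alpha, beta and epsilon lay below all vector arrays, while the delta arrays lay within the range of the vector arrays.

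Against a vector mean of 7871 ± 1430 units (SD, n = 3), Klf4 fell 2.58-fold in alpha, to 3028 ± 308 (log2 difference -1.37 ± 0.13, limma adjusted p = 1.48e-06). In epsilon it fell 2.82-fold, to 2765 ± 66.4 units (-1.49 ± 0.13, adjusted p = 5.95e-07). In beta it fell 1.5-fold, to 5187 ± 188 units (-0.59 ± 0.13, adjusted p = 0.00901). The delta mean was 7620 ± 42.7 units, a log2 difference of -0.03 with a 95% interval from -0.31 to 0.25 (adjusted p = 0.996). By p-value Klf4 ranked 60 of 6963 probe sets in alpha and 42 in epsilon. The alpha and epsilon calls stood in all 15 fits that left out 1 array. In beta the adjusted p rose to 0.066 when the 5 arrays numbered 1 were left out, and to 0.0561 with only the beta and vector arrays in the fit, which ended that call. A second Klf4 probe set, 161185_i_at, read 5.33 to 26.8 units, below the floor of 189.652 units on all 15 arrays, and gives no level.

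The group order of Klf4 was vector, delta, beta, alpha, epsilon. The neighbours delta and beta differed by 0.56 ± 0.13 on the log2 scale (limma adjusted p = 0.0199). Beta lay above alpha by 0.78 ± 0.13 (adjusted p = 0.00174). Vector and delta did not differ beyond their spread, nor did alpha and epsilon, whose log2 difference of -0.13 had a 95% interval from -0.40 to 0.15 (adjusted p = 0.843). Among non-neighbours, delta lay above alpha by 1.34 (adjusted p = 3.65e-06), epsilon below beta by 0.91 (a difference of -0.91, adjusted p = 7.57e-04) and epsilon below delta (-1.46, adjusted p = 1.22e-06). The call between delta and beta did not stand when the 5 arrays numbered 1 were left out (adjusted p = 0.147), nor without any 1 of beta array 2 (0.0723), beta array 3 (0.0775) or delta array 1, 2 or 3 (0.0612, 0.0697 and 0.0695).

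Over the 6 comparisons between C/EBP groups, Klf4 was called in 5 and Klf6 in 1. The share of all tested probe sets called was 2.86% between beta and alpha, where 1 member probe set was called, and 8.40% between delta and alpha, where 2 were. It was 4.77% between delta and beta, 2.34% between epsilon and beta and 8.21% between epsilon and delta, with Klf4 the 1 member called in each. Between epsilon and alpha 1.31% of all were called by limma and 0 member probe sets, and 0 had an unadjusted p under 0.05. In moderated F-tests over the 5 groups 3 member probe sets were called, those of Klf4, Klf6 and 1 of Klf10, beside 16.5% of all. Over the 4 C/EBP groups alone 1 was called, that of Klf4 (adjusted p = 1.73e-06), beside 10.2% of all.

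**Figure D2:**
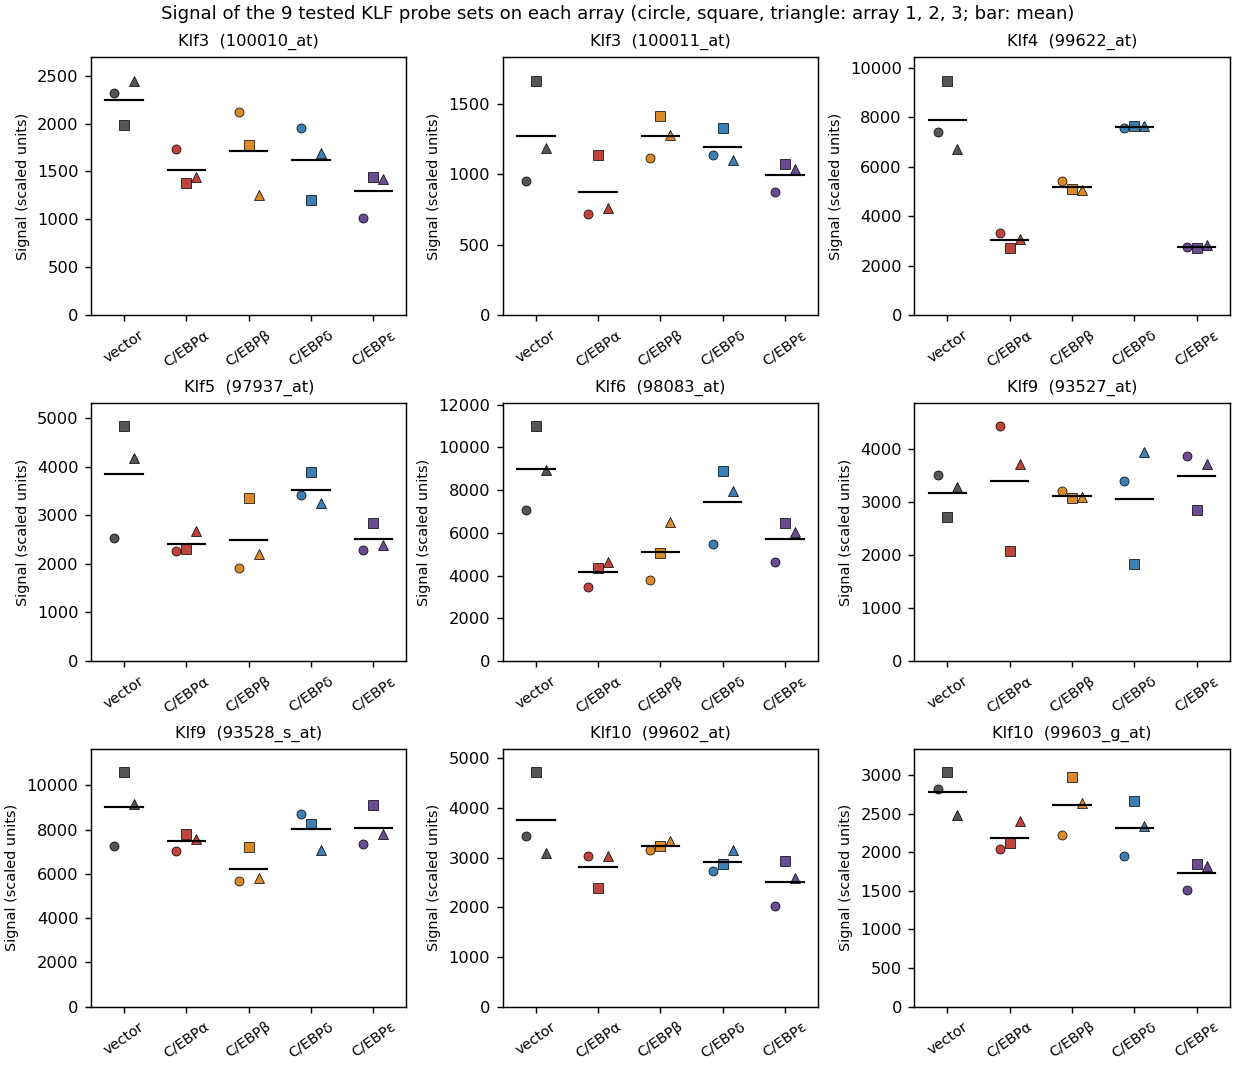
Scaled signal in units, on a linear axis from 0, of the 9 tested member probe sets on each of the 15 arrays (symbols by array number), by group, with a short bar at each group mean. For Klf4 all alpha and epsilon arrays lie between 2696 and 3305 units, below every vector, beta and delta array.

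Klf6, an early response gene that also acts in TGF-β and collagen gene control, was lower in alpha and beta. Its probe set, 98083_at, read 7068, 10988 and 8918 units on the vector arrays, 3480, 4335 and 4633 in alpha, and 3788, 5033 and 6491 in beta. It read 5464, 8885 and 7949 units in delta, and 4638, 6461 and 6024 in epsilon. All alpha, beta and epsilon arrays lay below all vector arrays, and the delta arrays overlapped them. Array 1 was the lowest of its group in all 5 groups.

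The mean fell 2.15-fold in alpha, from 8991 ± 1961 to 4149 ± 599 units (log2 difference -1.10 ± 0.22, limma adjusted p = 0.00257). This call stood in each of the 15 fits that left out 1 array. In beta Klf6 fell 1.78-fold, to 5104 ± 1353 units (-0.83 ± 0.22, adjusted p = 0.0279), a call lost without vector array 2 (0.0994) or 3 (0.0821), or without beta array 1 (0.118) or 2 (0.0683). The beta call was also lost with no filter (0.0945), with array weights (0.0596) and with only the 2 groups in the fit (0.0553). The epsilon mean of 5708 ± 952 units was not called (-0.65 ± 0.22, adjusted p = 0.0598), but was called without vector array 1 (0.0392), beta array 1 (0.0448) or delta array 1 (0.0432), and without all 5 arrays numbered 1 (0.0342). It was also called with quantile normalization (0.0171), no further scaling (0.0196) and the median log2 ratio (0.0248). The delta mean was 7432 ± 1768 units (-0.28 ± 0.22, adjusted p = 0.954).

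In the group order of Klf6, which ran vector, delta, epsilon, beta, alpha, no neighbours differed beyond their spread. The ends of the C/EBP order did: delta lay above alpha by 0.82 ± 0.22 (limma adjusted p = 0.0293). That call was lost without alpha array 1 (0.106) or 2 (0.0702), without delta array 2 (0.137) or 3 (0.114), with no filter (0.108) and without the variance trend (0.0517).

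Klf10, a repressor first known as a TGF-β inducible early gene, was read by a pair of probe sets drawn from the same source sequence, which are therefore not independent and correlated at 0.80 over the 15 arrays. The first, 99602_at, read 3436, 4723 and 3087 units on the vector arrays, 3033, 2392 and 3036 in alpha, and 3161, 3228 and 3337 in beta. It read 2721, 2867 and 3153 units in delta, and 2017, 2936 and 2592 in epsilon. The second, 99603_g_at, read 2818, 3037 and 2486 units on the vector arrays, 2036, 2120 and 2399 in alpha, 2217, 2971 and 2636 in beta, 1946, 2658 and 2332 in delta, and 1511, 1841 and 1822 in epsilon. On both, the alpha and epsilon arrays lay below all vector arrays, and the beta and delta arrays overlapped them.

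Klf10 was called in epsilon alone among the 4 comparisons with vector. The second probe set fell 1.61-fold there, from 2780 ± 277 to 1725 ± 185 units (log2 difference -0.69 ± 0.16, limma adjusted p = 0.00765), a call lost, among the alternatives run, only without the 5 arrays numbered 1 (0.0831). The first fell 1.48-fold, from 3749 ± 861 to 2515 ± 464 units (-0.57 ± 0.17, adjusted p = 0.0336). That call was lost without vector array 1 (0.0558) or 2 (0.138), without epsilon array 1 (0.129) or 3 (0.0656), without the arrays numbered 1 (0.206), with no filter (0.0672) and with only the 2 groups in the fit (0.122). In alpha the log2 differences were -0.40 and -0.35 (adjusted p = 0.159 and 0.19), in beta -0.19 and -0.10 (0.594 and 0.783), and in delta -0.34 and -0.27 (0.833 and 0.898). On the second probe set, epsilon was not called against alpha, the C/EBP group next to it in the order (-0.34, limma adjusted p = 0.497). Nor was it called against beta (-0.59, adjusted p = 0.072). All epsilon arrays of this probe set nonetheless lay below all alpha and all beta arrays, as was so for 4.57% and 8.24% of all tested probe sets.

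Klf3, a repressor that works through CtBP, was read by 2 probe sets that correlated at only 0.17 over the 15 arrays. One, 100010_at, read 2314, 1989 and 2448 units on the vector arrays, 1730, 1377 and 1444 in alpha, and 2118, 1772 and 1252 in beta. It read 1951, 1206 and 1691 units in delta, and 1011, 1446 and 1424 in epsilon. All alpha, delta and epsilon arrays of this probe set lay below all vector arrays. The other, 100011_at, read 953, 1667 and 1190 units on the vector arrays, 721, 1136 and 764 in alpha, 1119, 1414 and 1278 in beta, 1141, 1332 and 1103 in delta, and 878, 1072 and 1036 in epsilon. Its vector arrays overlapped those of every C/EBP group, while its epsilon arrays lay below all beta and delta arrays.

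On the first probe set Klf3 fell 1.76-fold in epsilon, from 2250 ± 236 to 1294 ± 245 units (log2 difference -0.81 ± 0.23, limma adjusted p = 0.0226). The call was lost without vector array 1 (0.0681) or 3 (0.0861), without epsilon array 1 (0.0871), without all arrays numbered 1 (0.165) and with no filter (0.055). Alpha, beta and delta gave -0.57, -0.42 and -0.50 (adjusted p = 0.118, 0.294 and 0.758), of which beta was called with array weights (-0.74, adjusted p = 0.0136). The second probe set gave -0.53 in alpha, 0.03 in beta, -0.06 in delta and -0.32 in epsilon, with adjusted p-values of 0.198, 0.958, 0.996 and 0.447. A fall of Klf3 in epsilon was thus called on 1 of its 2 probe sets.

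Klf5, an activator that C/EBPβ and C/EBPδ are known to induce early in fat-cell differentiation, was not called in any group. Its probe set, 97937_at, read 2522, 4830 and 4178 units on the vector arrays, 2264, 2307 and 2680 in alpha, and 1913, 3361 and 2195 in beta. It read 3406, 3885 and 3260 units in delta, and 2290, 2831 and 2383 in epsilon. Vector array 1 lay far below the other vector arrays, and the vector range overlapped that of each of the 4 C/EBP groups. The log2 differences were -0.62 in alpha, -0.62 in beta, -0.08 in delta and -0.57 in epsilon, each ± 0.23, with limma adjusted p-values of 0.083, 0.104, 0.996 and 0.0979.

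Calls of Klf5 depended on the setting, and the changes included these. Without vector array 1, alpha, beta and epsilon were called lower (adjusted p = 0.00923, 0.0161 and 0.0135). Without the 5 arrays numbered 1, alpha and epsilon were called (0.0287 and 0.0408), and without beta array 2, alpha and beta were (0.0476 and 0.03). Quantile normalization called all 3 (0.0389, 0.0429 and 0.0368), as did the deposited scaling with no further step (0.0383, 0.0409 and 0.0351). Scaling by the median log2 ratio called alpha and epsilon (0.0482 and 0.0466), and array weights called beta (0.014). In delta the 95% interval of the Klf5 difference ran from -0.56 to 0.40.

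Klf9, which binds the basic transcription element and is known as a glucocorticoid and thyroid hormone responsive gene, was read by 2 probe sets that did not move together over the 15 arrays (r = -0.29). One, 93528_s_at, read 7262, 10602 and 9179 units on the vector arrays, 7050, 7821 and 7597 in alpha, and 5697, 7205 and 5801 in beta. It read 8724, 8260 and 7076 units in delta, and 7333, 9089 and 7784 in epsilon. The beta arrays lay below all vector arrays and the other groups overlapped them. Its mean fell 1.44-fold in beta, from 9014 ± 1676 to 6234 ± 842 units (log2 difference -0.52 ± 0.15, limma adjusted p = 0.0382).

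That Klf9 call was lost without vector array 2 (0.127) or 3 (0.119), beta array 1 (0.119) or 3 (0.137) or epsilon array 3 (0.0505), and without the arrays numbered 1 (0.0653). It was also lost with no filter (0.0702), without the variance trend (0.06) and with only the 2 groups in the fit (0.115). Alpha, delta and epsilon gave -0.25, -0.16 and -0.15 (adjusted p = 0.331, 0.982 and 0.564). The other probe set, 93527_at, read 3515, 2720 and 3273 units on the vector arrays and 3196, 3065 and 3096 in beta, a log2 difference of -0.02 ± 0.27 (adjusted p = 0.983). It read 4424, 2065 and 3705 units in alpha, 3386, 1836 and 3944 in delta, and 3871, 2844 and 3720 in epsilon, and none of these was called (adjusted p = 0.956, 0.996 and 0.801). The fall of Klf9 in beta was thus called on 1 of 2 probe sets, and the difference between the probe sets was not tested.

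Klf2, a factor of resting endothelial cells and lymphocytes, stayed under the filter on all arrays. Its probe set, 96109_at, ran from 115 to 343 units and was at or under the floor on 10 of the 15 arrays. With no filter its log2 differences were 0.23, 0.14, -0.15 and -0.08 in alpha, beta, delta and epsilon, none of them called (limma adjusted p = 0.729, 0.924, 1 and 0.976).

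**Figure D3:**
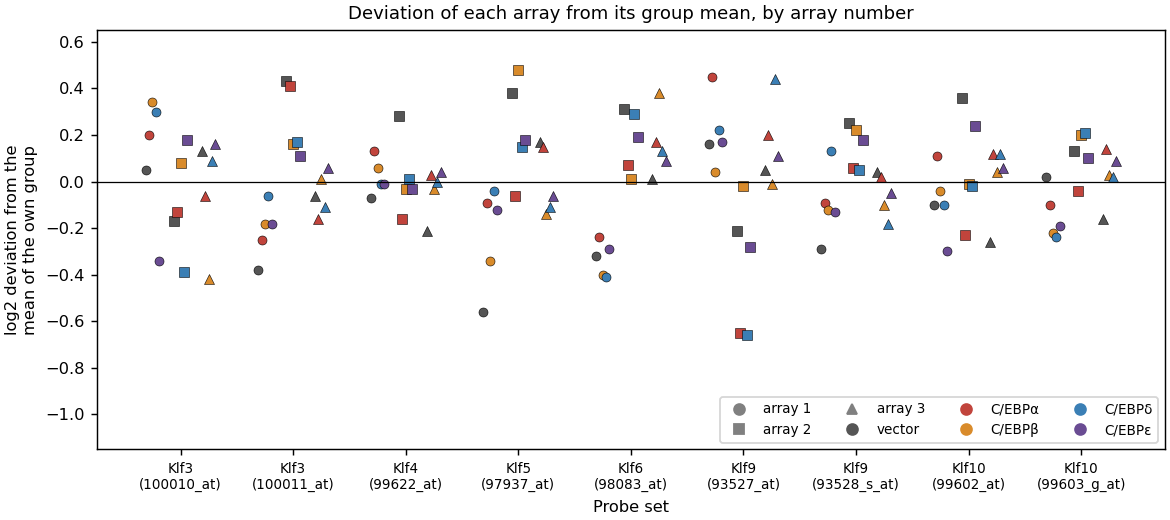
Log2 deviation of each array from its group mean (axis) for the 9 tested member probe sets, with symbols by array number and colours by group. For Klf6 the array numbered 1 is the lowest in 5 of 5 groups, and for the Klf9 probe set 93527_at it is the highest in 4.

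Several probe sets shared a shift by array number, in addition to the group differences given above. Array 1 was the lowest of its group in 5 of 5 groups for Klf6, in 4 for Klf5, for 1 probe set each of Klf3, Klf9 and Klf10, and in 3 for the other Klf10 probe set. For the Klf9 probe set without a call it was the highest in 4 of 5 groups, and for the called Klf3 probe set in 3. For Klf4 it was the lowest in 1 group and the highest in 2.

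Genes whose log2 signals followed each member most closely were ranked by Pearson's r over the 15 arrays, which fall into 5 groups of 3 and share the array effects above. The values are a description with no test. For Klf4 the closest were Hspa1b, an inducible Hsp70 chaperone (r = 0.988), Cryab, a small heat shock protein (0.979), and Gadd45g, a growth arrest and DNA damage gene (0.975). Once group means were removed, the correlations were 0.56, 0.582 and 0.262. Hspa1b ran from 74070 to 86386 units in vector, 3760 to 5405 in alpha, 27271 to 28930 in beta, 60223 to 72441 in delta and 3095 to 4039 in epsilon. These 3 genes were chosen for likeness to Klf4 on these arrays, so a shared group pattern follows from the choice. Hspa1b and Gadd45g had the group order of Klf4, and Cryab the same order apart from alpha, which was below epsilon. Log2 differences from vector were -4.12, -1.52, -0.24 and -4.48 for Hspa1b, -2.76, -1.41, -0.36 and -2.63 for Cryab, and -4.42, -2.40, -0.08 and -4.78 for Gadd45g. In delta none of the 3 was called (limma adjusted p = 0.899, 0.709 and 0.996).

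**Figure D4:**
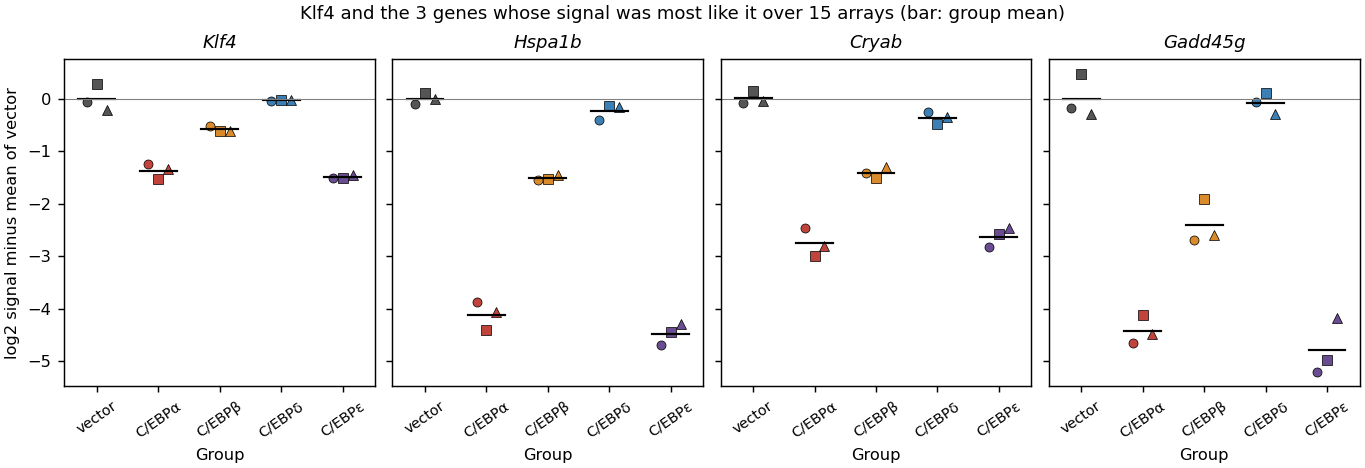
Log2 signal relative to the vector mean (axis) on each of the 15 arrays for Klf4 and the 3 genes most like it, Hspa1b, Cryab and Gadd45g, by group. In delta the group means run from -0.36 (Cryab) to -0.03 (Klf4), and in alpha and epsilon each of the 4 genes lies lower than in beta.

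For Klf6 the closest was Csrp1, a LIM-domain protein of actin fibres (r = 0.955, and 0.874 with group means removed), with log2 differences of -1.01 in alpha, -0.72 in beta, -0.18 in delta and -0.65 in epsilon. Saraf, a regulator of calcium entry (0.915), and Cpe, a carboxypeptidase (0.914), followed. For Klf5 they were Gas5, a noncoding RNA of growth arrest (0.917), Atp6v0b, a proton pump subunit (0.912), and Gars, a glycyl-tRNA synthetase (0.905). The called Klf9 probe set was followed by Lrrc8a, Hsd17b12 and Atp6v0e (0.910, 0.901 and 0.882). The brighter Klf3 probe set was followed by Atxn7l3, Dnajb9 and Ccnd2 (0.847, 0.823 and 0.800), and the brighter Klf10 probe set by Psmb7, Sin3b and Psmd11 (0.849, 0.830 and 0.824). Sin3b, a corepressor scaffold, was not called in alpha, beta, delta or epsilon (limma adjusted p = 0.185, 0.425, 0.954 and 0.076).

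Between members, Klf5 and Klf6 correlated at 0.78, as did Klf5 and the called Klf9 probe set, and Klf4 and Klf6 at 0.66 over the same 15 arrays. In Klf5, Klf6 and that Klf9 probe set array 1 was the lowest in 4 or 5 of the 5 groups.

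Other members of the family that passed the filter were Klf1, Klf7, Klf13, Sp1 and Sp3. Of these 5 genes, 1 was called: Sp3, a GC-box binding factor, rose 1.78-fold in alpha, from 3742 ± 1062 to 6505 ± 303 units (limma adjusted p = 0.0088), a call lost without vector array 3 (0.0503) and without the arrays numbered 1 (0.0787). In beta, delta and epsilon 0 of 5 were called by limma, and 1, 0 and 1 had an unadjusted p under 0.05. Sp1 gave -0.20, -0.26, -0.18 and -0.47 in alpha, beta, delta and epsilon (adjusted p = 0.693, 0.621, 0.993 and 0.253). The medians of the 5 were -0.01, 0.25, 0.08 and -0.16. Of all tested probe sets 14.3% were called in either direction in alpha, 9.31% in beta, 0.359% in delta and 16.3% in epsilon.

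Of 12 tested KLF cofactors, 2 fell and 1 rose in alpha, 1 fell in beta, 0 were called in delta (4 at an unadjusted limma p under 0.05), and 1 fell and 2 rose in epsilon, beside 14.3%, 9.31%, 0.359% and 16.3% of all probe sets called in either direction. Fhl2, a LIM-only coregulator, had 18229 ± 2348 units in vector and 5673 ± 169 in alpha (log2 difference -1.68 ± 0.12, limma adjusted p = 4.67e-08). It fell to 7560 ± 479 units in beta (adjusted p = 6.54e-06) and 6241 ± 486 in epsilon (1.09e-07), and read 14866 ± 1129 in delta (0.724). Kat2b, the acetyltransferase PCAF, rose 1.47-fold in alpha (adjusted p = 0.014), a call lost without vector array 1 (0.0599) or 3 (0.0586) and without the arrays numbered 1 (0.156). The other fall in alpha was that of Fbxw7 (limma adjusted p = 0.0287). The rises in epsilon were those of Kat2b (0.0215) and Crebbp (0.0484). Leaving out single arrays, 15 in turn, ended these 3 calls 4, 3 and 11 times. The 12 had medians of 0.06, 0.07, 0 and 0.18 in alpha, beta, delta and epsilon.

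Upstream of the members, 6 genes of the Erk5 and Mef2 route, which drives Klf2 and Klf4, were tested. Of them 1 fell in each of alpha, beta and epsilon and 0 in delta (0 at an unadjusted p under 0.05), each time Mef2a, with 4070 ± 782 units in vector and 2526 ± 104 in epsilon (log2 difference -0.67, limma adjusted p = 0.00891, and 0.0846 without the arrays numbered 1). Its alpha and beta calls (0.0481 and 0.0407) were less firm: leaving out single arrays, 15 in turn, ended them 12 and 6 times (adjusted p up to 0.19 and 0.139). Of 7 tested genes of the TGF-β route to Klf10, 1 fell in the same 3 groups and 0 in delta (1 at an unadjusted limma p under 0.05). This was Smad7, an inhibitory Smad, with 4402 ± 285 units in vector, 2604 ± 206 in alpha (adjusted p = 3.02e-04), 2905 ± 64.1 in beta (0.00425), 3646 ± 283 in delta (0.752) and 2899 ± 171 in epsilon (0.00246). Its beta call was lost without the arrays numbered 1 (0.0653). Beside the counts of both routes, 7.15% of all tested probe sets were called lower in alpha, 4.18% in beta, 0% in delta and 6.91% in epsilon.

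Among 7 other genes listed as immediate early or zinc-finger genes, 3 fell in alpha and 1 in beta. In delta 0 fell (0 at an unadjusted limma p under 0.05), and in epsilon 2 did. Their median log2 differences were -0.87, -0.31, -0.12 and -0.10. In the same order, 7.15%, 4.18%, 0% and 6.91% of all tested probe sets were called lower. Egr1, a serum response factor target that binds GC-rich DNA, fell 1.97-fold in alpha, from 10427 ± 1493 to 5252 ± 310 units (limma adjusted p = 1.9e-04), and was not called in beta, delta or epsilon (0.225, 0.996 and 0.314). Snai2, a repressor of epithelial genes, fell 1.83-fold in alpha (adjusted p = 0.00176). Ier2 fell 3.54-fold in alpha, from 14652 ± 3960 to 4058 ± 510 units (adjusted p = 4.89e-05), and to 4980 ± 1671 in epsilon (2.38e-04). Its fall in beta to 7097 ± 1437 units (0.0115) was lost without vector array 2 (0.0512), beta array 1 (0.0512) or beta array 3 (0.053). The other fall in epsilon was that of Zfp36 (limma adjusted p = 0.0392). Leaving out single arrays, 15 in turn, ended the Zfp36 call 4 times.

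Downstream, 13 genes described as KLF targets were tested. In alpha 5 fell, and in beta 2 fell and 2 rose. In delta 0 were called by limma (0 at an unadjusted p under 0.05), and in epsilon 5 fell and 1 rose. The medians were -0.34, -0.16, -0.07 and -0.10. Of all tested probe sets 7.15% fell and 7.17% rose in alpha, and 4.18% and 5.13% in beta. In delta 0% fell and 0.359% rose, and in epsilon 6.91% fell and 9.38% rose. Cdkn1a, which Klf4 and Klf6 are known to raise, fell 1.83-fold in alpha, from 7782 ± 1096 to 4251 ± 512 units (limma adjusted p = 0.00101), and to 4179 ± 570 in epsilon (9.1e-04). It read 5584 ± 883 units in beta (0.0676) and 7107 ± 765 in delta (0.993). Acta2, smooth muscle actin, fell from 2847 ± 379 units to 960 ± 87.5 in alpha (adjusted p = 2.52e-05), 1346 ± 124 in beta (0.00169) and 1067 ± 224 in epsilon (7.28e-05), and read 2407 ± 352 in delta (0.954). Tagln fell 3.69-fold in alpha, from 2124 ± 56.2 to 632 ± 298 units (7.94e-04). Itgb7 fell in alpha, beta and epsilon (limma adjusted p = 0.00672, 0.00652 and 0.00411). Without the arrays numbered 1 these Itgb7 calls were lost (0.121, 0.121 and 0.0573). Pdgfa fell in alpha and epsilon (0.0163 and 0.0457), calls that leaving out single arrays, 15 in turn, ended 3 and 9 times. The rises were those of Col1a1 (log2 difference 0.76, limma adjusted p = 0.0232) and Ccnd1 (0.41, 0.0439) in beta, and of Ccne1 in epsilon (0.51, 0.0294). Leaving out single arrays, 15 in turn, ended these calls 3, 10 and 5 times.

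Of the 5 smooth muscle markers, Acta2 was called lower in alpha, beta and epsilon, where Klf4 fell, and Tagln in alpha and epsilon, the latter call lost without the arrays numbered 1 (adjusted p = 0.0561). The other markers, Cnn1, Myh11 and Des, were dim. Mean signals of Cnn1 were 660 units in vector, 750 in alpha, 712 in beta, 593 in delta and 391 in epsilon, and those of Des lay between 172 and 222 in all groups. Myh11 read 637 units in vector, 585 in alpha, 573 in beta, 373 in delta and 415 in epsilon. The summed signal of the 5 markers ran from 6169 to 6738 units in vector, 2401 to 3817 in alpha, 3468 to 4779 in beta, 4636 to 5698 in delta and 2208 to 3579 in epsilon, with Acta2 and Tagln the 2 above 1092.06 units. Their part in the results for Klf4, Klf6 and Cdkn1a was not tested.

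Of 7 tested genes that act with the KLFs in fat-cell differentiation, 1 fell and 2 rose in alpha and 1 rose in beta. In delta 1 rose, and in epsilon 1 fell and 1 rose. The shares of all tested probe sets called in either direction were 14.3%, 9.31%, 0.359% and 16.3%. Lpl, lipoprotein lipase, was the gene that rose in all 4 groups, from 254 ± 33.4 units in vector to 9839 ± 1560 in alpha, 885 ± 90.7 in beta, 1648 ± 327 in delta and 1025 ± 222 in epsilon. Its calls in beta and epsilon were lost with the floor at the 40th percentile (adjusted p = 0.252 and 0.0554). Pparg, the central fat-cell receptor, read 91.3 ± 77.6 units in vector and rose to 2983 ± 324 in alpha (adjusted p = 1.88e-04, but 0.0619 with no floor). Its means were 143 units in beta, 331 in delta and 26.3 in epsilon. It thus passed the filter of 1092.06 units through the alpha arrays alone. Its vector mean lay under the floor of 189.652 units, so the size of its rise depends on the floor. Klf5 and Klf9, described as its activators, were not called higher in alpha. Dlk1, an inhibitor of fat-cell differentiation, fell 1.58-fold in alpha (limma adjusted p = 0.00859). The mouse Cebpb and Cebpd genes were not called in any group, with adjusted p-values from 0.295 to 0.943.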

How the data were processed

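All 15 arrays were used. The authors deposited linear intensity values per probe set, made with Affymetrix Microarray Suite 5.0, per the labels, without detection calls. The 66 controls were left out, each array was scaled to the mean of the array medians, a floor was set at the 20th percentile of all scaled values (189.652 units), and values were put on the log2 scale. Probe sets above the pooled median on at least 3 arrays were tested (6963, for 5338 genes). One limma 3.58.1 fit in R 4.3.3 (lmFit, eBayes with trend) held all 5 groups. Two-sided p-values were adjusted by Benjamini-Hochberg within each contrast. The fit was tested on simulated data. Symbols came from the platform annotation (10833 probe sets name 1 gene, 396 several, 1193 none).

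The text describes every member probe set, the 3 genes most correlated with each member's brightest tested probe set, and called or bright genes of each list, read by their brightest tested probe set. Members and lists were chosen with earlier results of these data known. Alternatives were other scalings, floors and filters, a replicate block, array weights, a fit with no variance trend, fewer groups, the labels' univariate F-test, and leaving out each array or the 5 arrays numbered 1. For list genes the alternatives were added after seeing the data. The number of arrays limits the precision.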

Additional observations from a re-analysis of the deposited data

How the results depend on the processing

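Of 42 member log2 differences, the alternatives gave 466 values on the same side of the threshold, 20 that gained and 18 that lost a call. Leaving out 1 array gave 597, 8 and 25. No direction of a called difference turned. The counts of member probe sets called moved as follows. With no filter they were 1 in beta (3 in the reported analysis), 2 in epsilon (4), 1 between delta and alpha (2) and 1 over the 5 groups (3). Without the 5 arrays numbered 1 they were 1 in beta, 0 between delta and beta (1) and 2 over the 4 C/EBPs (1). With only the groups compared, beta had 0. Without the trend, delta against alpha had 1. Quantile normalization gave 2 between delta and beta, 2 between epsilon and beta (1), 2 between epsilon and delta (1), 6 over the 5 groups and 3 over the C/EBPs. No further scaling gave 2, 2, 6 and 3 for the last 4 of these, and the median log2 ratio gave 2 for epsilon against beta, 2 for epsilon against delta and 2 over the C/EBPs. Array weights gave 3 between delta and beta, 3 between epsilon and beta, 2 between epsilon and delta, 6 over the 5 groups and 5 over the C/EBPs. Other moves against vector included these. Quantile normalization and no further scaling each gave 3 in alpha (2), 4 in beta and 6 in epsilon. The median log2 ratio gave 3 in alpha and 6 in epsilon, and array weights gave 4 in beta. Without the 5 arrays numbered 1 the counts were 3 in alpha and 3 in epsilon. Over single arrays left out, counts ran from 2 to 3 in alpha, 1 to 4 in beta, 0 in delta, 2 to 5 in epsilon, 1 to 2 between delta and alpha, 0 to 1 between delta and beta, 2 to 3 over the 5 groups and 1 to 2 over the C/EBPs.

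The replicate numbers were not taken to pair the arrays, since not every same-numbered pair had deviations from group means that correlated above 0.1. Correlations were 0.22 to 0.44 between arrays numbered 1 (10 of 10 above 0.1), 0.02 to 0.43 for number 2 (8 of 10) and -0.07 to 0.12 for number 3 (2 of 10). Between different numbers and groups the median was -0.09, with 3 of 60 above 0.1. As a hint from the data, 13 of 15 arrays correlated best with an array of their own number, all those numbered 1 and 2 and 3 of 5 numbered 3. With the replicate block the counts against vector were 3 in alpha, 4 in beta and 6 in epsilon. They were 2 between delta and beta, 2 between epsilon and beta, 5 over the 5 groups and 3 over the C/EBPs. The block called Klf5 in alpha, beta and epsilon (adjusted p = 0.0189, 0.0251 and 0.026) and Klf6 in epsilon (0.0013). Over all probe sets the calls in beta went from 648 to 1099 with the block, 1576 with array weights and 339 without the arrays numbered 1; those in epsilon from 1134 to 1730, with weights, and to 693 without those arrays or 690 with only its groups. Alpha had 997 and 654 without those arrays, and delta 25 and 11 to 74. With the block, 1440 of all probe sets were called in alpha and 1676 in epsilon. Of 42 called values of list genes, 18 stood in every fit.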
